A study of Mus musculus with 120 samples.

Results

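The type I interferon-stimulated genes described here are 37 genes, chosen by symbol and all present among the 55487 genes that the count tables of both sequencing batches list. They were measured by bulk RNA sequencing in 120 biopsies of the immunological niche (IN), a porous polycaprolactone scaffold placed under the skin that fills with host immune and stromal cells. The mice were NOD/ShiLtJ, a strain that develops autoimmune diabetes, and NOR/LtJ, a nondiabetic strain that shares the diabetogenic H2g7 haplotype, and all were female. INs were implanted at 4 sites at 4 weeks of age, and from 6 weeks of age they were removed and replaced weekly in rotation. The 6-week biopsies were thus first explants, whereas later ones followed repeated surgery and could be replacement INs. Between 6-week and later biopsies, the age of a mouse, the time since its first implant, repeated surgery and the time an IN had been in place cannot be told apart. Changes described below as with age or time to onset carry all of these.

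The NOR group comprised 23 biopsies of 5 mice at 6, 10, 14, 18 or 22 weeks of age, all in batch 1. NOD nonprogressors, which stayed normoglycaemic, gave 39 biopsies, of which 4 mice of batch 1 were sampled at 6 to 22 weeks of age, 7 mice of batch 2 at 6 weeks with 6 of them again at 14 weeks, and 6 biopsies are labelled by days after implantation without a mouse number. NOD progressors, which became hyperglycaemic, gave 58 biopsies of 10 mice at 6 weeks of age and then by the time to onset: 7, 5, 3 and 1 weeks before it and at onset. All mice were given the analgesic carprofen and operated on under isoflurane, no drug under test or engineered allele is named for any group, and a biopsy was a whole scaffold. Batch 1 held 74 libraries of 4722396 to 56185434 counts and batch 2 held 46 libraries of 29029239 to 43880986 counts. The batches were read on different instruments and held different mice, except that progressor mice 1 to 4 were read in batch 2 at 7 weeks before onset and in batch 1 at all other times. For the other mice, cohort and instrument cannot be told apart. A single ribosomal RNA gene took up 85.7% of the library of NOR mouse 5 at 18 weeks. That library had no count for 10 of the 37 genes, which allows up to 3.03 CPM (counts scaled to library size) for each, for counting error only. Marker genes of fibroblasts and macrophages were detected in the biopsies, with a summed macrophage marker level of 1800 to 4140 CPM over all 120 samples.

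Type I interferons are cytokines that most cells release on sensing foreign or misplaced nucleic acid. They bind the IFNAR receptor, whose signal leads to a transcription factor complex that holds STAT2 and IRF9, binds interferon-stimulated response elements and switches on a broad antiviral programme. Such genes have been studied in islets and blood in type 1 diabetes as a possible early feature of the disease.

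The response element is repeated GAAA, or TTTC when read on the other strand. The motif GAAANNGAAA, or TTTCNNTTTC for the opposite strand, lay in the promoter window (250 bases before to 50 bases after the start) of 11 of the 27 members (40.7%) that have a promoter in the RefSeq set of GRCm38.p6, compared with 1079 of 27025 genes (3.99%). The windows below belong to members whose RNA is described in detail, and are read 5′ to 3′ on the strand of the gene, with the motif copies in capitals.
Ifit1, chr19:34640767-34640831 (+): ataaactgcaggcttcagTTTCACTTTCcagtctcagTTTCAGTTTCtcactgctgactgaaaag
Ifit3, chr19:34583355-34583434 (+): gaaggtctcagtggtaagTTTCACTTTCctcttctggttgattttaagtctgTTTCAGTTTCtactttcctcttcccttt
Isg15, chr4:156200857-156200914 (-): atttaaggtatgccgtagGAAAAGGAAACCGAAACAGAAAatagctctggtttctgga
Oas3, chr5:120777707-120777752 (-): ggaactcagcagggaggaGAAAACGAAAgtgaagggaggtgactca
Bst2, chr8:71537569-71537620 (-): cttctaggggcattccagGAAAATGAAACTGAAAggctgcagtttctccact
Rsad2, chr12:26456545-26456590 (-): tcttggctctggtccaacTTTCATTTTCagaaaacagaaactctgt

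Ifit1 and Ifit3 each held 2 copies of the motif and Isg15 held 3 overlapping copies. Ifit3b carries the same 80 bases as Ifit3 at chr19:34607751-34607830, and the promoters of that pair shared an unbroken run of 169 bases. All of the windows lie upstream of the GENCODE M21 start of their gene. With age in nonprogressors, the median log2 change of the 11 members with the motif was -0.80 (range -2.32 to -0.53), and that of the 16 members without it in the window was -0.65 (range -2.09 to -0.05), so the ranges overlapped. A match is a description of these letters and not a measured binding site. Oas2, Mx1, Mx2, Dhx58, Zbp1, Usp18, Parp9, Parp14, Rtp4 and Ifi27 were not matched to a promoter.

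By annotation, 36 of the 37 genes are protein coding and Mx2 is a polymorphic pseudogene. Several lie side by side: Ifit2, Ifit3, Ifit3b and Ifit1 on chromosome 19 between 34550694 and 34650009, and Oas2, Oas3 and Oas1a on chromosome 5 between 120730333 and 120907521. Levels per length were compared as mean CPM per kilobase of exon in the 6-week nonprogressor biopsies of batch 1. On this scale Lgals3bp, a secreted glycoprotein, was the most abundant member (94.0), followed by Bst2, which tethers budding virus at the cell surface (51.7), and Ifi27 (30.2). Ifi44 (1.22), Mx2 (1.90) and Mx1 (2.33) were the least abundant. Some members share sequence with a near copy, so their counts could be split: 57.6% of the 50-base words of Oas1a occur in another gene (Oas1g), as do 51.2% of Ifit3 and 45.0% of Ifit3b, whereas 18 members share none.

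For each biopsy, the mean over the 37 genes of log2 CPM was taken as a score, a description with no test because the genes were chosen with results of these data known. At 6 weeks of age the score was 4.21 ± 0.37 (SD, n = 4) in NOR. It was 4.99 ± 0.44 (n = 4) in nonprogressors and 4.54 ± 0.12 (n = 5) in progressors of batch 1. In batch 2 it was 5.16 ± 0.55 (n = 7) and 5.15 ± 0.72 (n = 5). The mean over later biopsies was lower in every group: 3.93 ± 0.23 (n = 18) in NOR without the ribosomal RNA-rich library, 4.11 ± 0.36 (n = 16) and 3.83 ± 0.15 (n = 6) in nonprogressors of batches 1 and 2, and 4.12 ± 0.42 and 3.95 ± 0.53 (n = 20 each) in progressors of batches 1 and 2. The later scores of all groups overlapped.

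**Figure D1:**
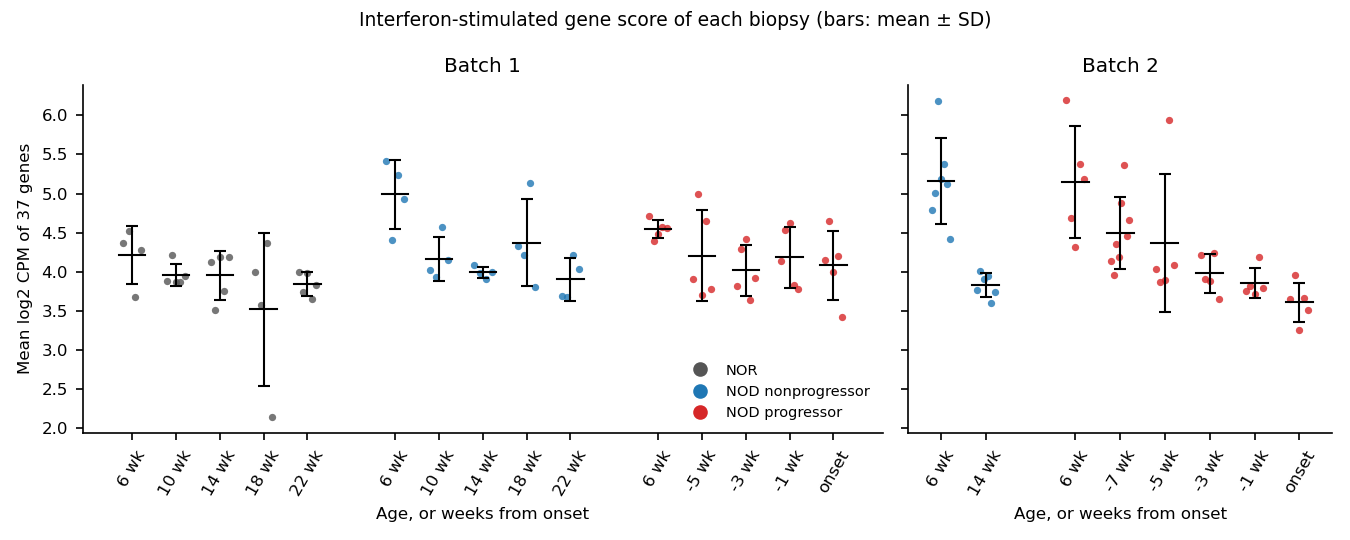
Score of the 37 genes (mean log2 CPM, y axis) in each biopsy, by group and time (x axis), with a panel for each sequencing batch; points are biopsies and bars are the mean ± SD. The 6-week nonprogressor biopsies of batch 2 sit between 4.42 and 6.19 and the 14-week ones between 3.61 and 4.01, while the NOR biopsies range from 3.67 to 4.52 at 6 weeks.

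The first comparison asked how the genes changed with age in NOD mice that did not progress. With age, 36 of the 37 genes fell in nonprogressors (mean of 10 to 22 weeks compared with 6 weeks, batch as a term, edgeR's quasi-likelihood test with Benjamini-Hochberg adjustment over 21138 genes), where 24.1% of all tested genes passed the test, 14.2% falling and 9.88% rising. The median log2 change of the members was -0.80, compared with -0.03 over all tested genes. The one that did not pass was Trim25, an E3 ligase that modifies the RNA sensor RIG-I (log2 change -0.05 ± 0.07 SE, adjusted p = 0.627). The IFIT proteins, which bind viral RNA and block its translation, had the largest falls among the families, with a median change of -2.07 and 4 of 4 genes past the test. The OAS family, whose enzymes make oligoadenylates that activate RNase L, fell in 5 of 5 genes with a median of -1.37, and the Mx GTPases, which block incoming viral particles, in 2 of 2 with a median of -1.54.

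Ifit1 measured 33.7, 11.1, 24.1 and 21.4 CPM in the 6-week biopsies of nonprogressor mice 1 to 4, and 2.26 to 19.0 CPM (median 5.00, n = 16) at 10 to 22 weeks. In batch 2 it ranged from 14.5 to 70.6 CPM (median 25.3, n = 7) at 6 weeks and from 2.39 to 5.91 CPM (median 4.47, n = 6) at 14 weeks. The batch 2 groups did not overlap, and in batch 1 the 18-week biopsy of mouse 3 (19.0 CPM) overlapped the 6-week values. Ifit1 fell by 2.32 ± 0.29 on the log2 scale (SE, adjusted p = 5.35e-06), and its neighbour Ifit3 fell by 2.08 ± 0.32 (adjusted p = 5.42e-05).

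Isg15, a ubiquitin-like protein that is attached to other proteins, measured 16.7, 5.95, 11.4 and 10.3 CPM in the 6-week biopsies of batch 1 and 1.80 to 11.8 CPM (median 3.35, n = 16) later. In batch 2 Isg15 ranged from 6.11 to 32.7 CPM (median 11.2) at 6 weeks and from 1.25 to 3.28 CPM (median 2.24) at 14 weeks, again without overlap. It fell by 1.78 ± 0.30 (SE, adjusted p = 0.000128). Of the ISG15 system, Usp18, which removes Isg15 and restrains the receptor, fell by 1.42 ± 0.23 (adjusted p = 8.49e-05) and Herc6, a ligase for Isg15, fell by 0.57 ± 0.14 (adjusted p = 0.00439). Usp18 ran from 7.72 to 41.7 CPM at 6 weeks and from 3.45 to 5.76 CPM at 14 weeks in batch 2.

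Irf7, the transcription factor that amplifies interferon production, measured 98.4, 49.1, 142 and 87.0 CPM at 6 weeks in batch 1 and 16.8 to 105 CPM (median 29.3, n = 16) later. In batch 2 Irf7 ran from 36.7 to 137 CPM (median 87.4) at 6 weeks and from 11.5 to 20.8 CPM (median 15.5) at 14 weeks, so every 6-week value was above every 14-week value. Irf7 fell by 1.64 ± 0.25 (SE, adjusted p = 4.18e-05). Irf9 and Stat2, which take part in the complex that binds the response element, had smaller changes (-0.53 ± 0.08, adjusted p = 7.47e-05, and -0.73 ± 0.13, adjusted p = 0.000303).

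Oas2 measured 45.9, 25.1, 46.0 and 50.4 CPM at 6 weeks in batch 1 and 7.37 to 33.3 CPM (median 15.8, n = 16) later, and 33.8 to 103 CPM compared with 11.7 to 21.2 CPM in batch 2. Oas2 fell by 1.53 ± 0.20 (SE, adjusted p = 8.90e-06) and Oas3 fell by 1.80 ± 0.27 (adjusted p = 4.43e-05). Mx1 ranged from 4.18 to 11.7 CPM at 6 weeks in batch 1, overlapping 1.99 to 14.5 CPM later, and fell by 1.49 ± 0.31 (adjusted p = 0.0009). Of the genes that sense or act on nucleic acid, all 5 fell, with Zbp1, a sensor of Z-form nucleic acid (-1.51 ± 0.21, adjusted p = 1.88e-05), and Eif2ak2, the RNA-activated kinase PKR (-0.80 ± 0.11, adjusted p = 1.57e-05), having the smallest p. The ADP-ribosyltransferase group of Parp9, Dtx3l and Parp14 fell in 3 of 3 genes with a median of -0.56.

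Among the other effectors, 11 of 11 fell. Rtp4, a negative regulator of interferon responses, fell by 1.71 ± 0.23 (SE, adjusted p = 1.65e-05) and Samd9l, which restricts virus translation, fell by 0.94 ± 0.12 (adjusted p = 5.35e-06). Rsad2, the antiviral enzyme viperin, fell by 0.72 ± 0.25 (adjusted p = 0.0387). Rsad2 measured 48.6, 24.1, 42.2 and 29.9 CPM at 6 weeks in batch 1, within the later range of 15.7 to 48.7 CPM. Bst2 fell by 0.53 ± 0.13 (adjusted p = 0.00337) and ranged from 40.8 to 55.8 CPM at 6 weeks and from 26.1 to 52.5 CPM later in batch 1.

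Within batch 2, every 14-week sample was below every 6-week sample for 30 of the 37 genes, compared with 4.59% of 23871 genes, whereas within batch 1, where 16 later biopsies had to lie below, this held for 0 members (0.469% of genes). The 18-week biopsy of nonprogressor mouse 3, the library of lowest depth (4722396 counts), was the highest of the 74 libraries of batch 1 in 4 members and among the 5 highest in 24. Taken mouse by mouse, the score of every later biopsy was below the 6-week score in 10 of 10 nonprogressors. Of these, the 6 mice of batch 2 had only 1 later biopsy each, and the 4 mice of batch 1 had 4 each. The mean later score differed from the 6-week score by -2.18 to -0.45 (median -1.16). Tested within batches, 28 members fell in batch 1 (median -0.70), where 6.61% of all genes fell, and 35 in batch 2 (median -1.27), where 17.3% did.

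In NOR mice of the same ages, 0 of the 37 genes passed the test, where 0.0357% of all 19628 genes did and DESeq2 also called 0 members. At an unadjusted p under 0.05 there were 9 members, 34 of 37 changes were negative, and the median log2 change was -0.22. The smallest p belonged to Ifit3b (-0.93 ± 0.28 SE, adjusted p = 0.413), Ifit3 (-0.89 ± 0.29, adjusted p = 0.507) and Ifi44 (-1.26 ± 0.42, adjusted p = 0.515). Ifit1 measured 8.76, 12.1, 4.33 and 6.03 CPM at 6 weeks in NOR mice 1, 2, 4 and 5, and 1.92 to 7.75 CPM (median 4.39, n = 18) later without the ribosomal RNA-rich library. Irf7 measured 39.0, 42.1, 18.9 and 36.0 CPM at 6 weeks and 12.7 to 35.2 CPM (median 24.5, n = 18) later. Mouse 4 was the low one of the 6-week NOR biopsies for both genes, and its mean later score was 0.23 above its 6-week score, whereas the other 3 mice with a 6-week biopsy fell. Whether the change with age differed between the strains was tested as an interaction within batch 1. For the interaction 0 of 37 members passed (0.0% of 20647 genes, DESeq2 0 as well), although 36 of 37 differences were negative (median -0.49) and 19 had an unadjusted p under 0.05. The members of smallest p were Sp100, a nuclear body protein (-0.61 ± 0.18 SE), Eif2ak2 (-0.49 ± 0.17) and Oas3 (-1.17 ± 0.40), each with an adjusted p of 0.74. A larger fall in nonprogressors than in NOR was thus not detectable gene by gene with 4 mice at 6 weeks in each strain.

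In progressors, 32 of the 37 genes were lower over the last 5 weeks up to onset than at 6 weeks of age (39.5% of all 21279 genes passed the test and 19.9% were lower), with a median log2 change of -0.65. The members that did not pass were Adar, an RNA-editing enzyme (-0.15 ± 0.07 SE, adjusted p = 0.0944), Ifi27 (-0.16 ± 0.08, adjusted p = 0.12), Rsad2 (-0.40 ± 0.22, adjusted p = 0.141), Herc6 (-0.18 ± 0.15, adjusted p = 0.351) and Trim25 (-0.06 ± 0.06, adjusted p = 0.4). The IFIT genes fell in 4 of 4 (median -1.98), the OAS genes in 5 of 5 (median -1.15), the Mx genes in 2 of 2 (median -1.27) and the transcription factors in 3 of 3 (median -0.60).

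**Figure D2:**
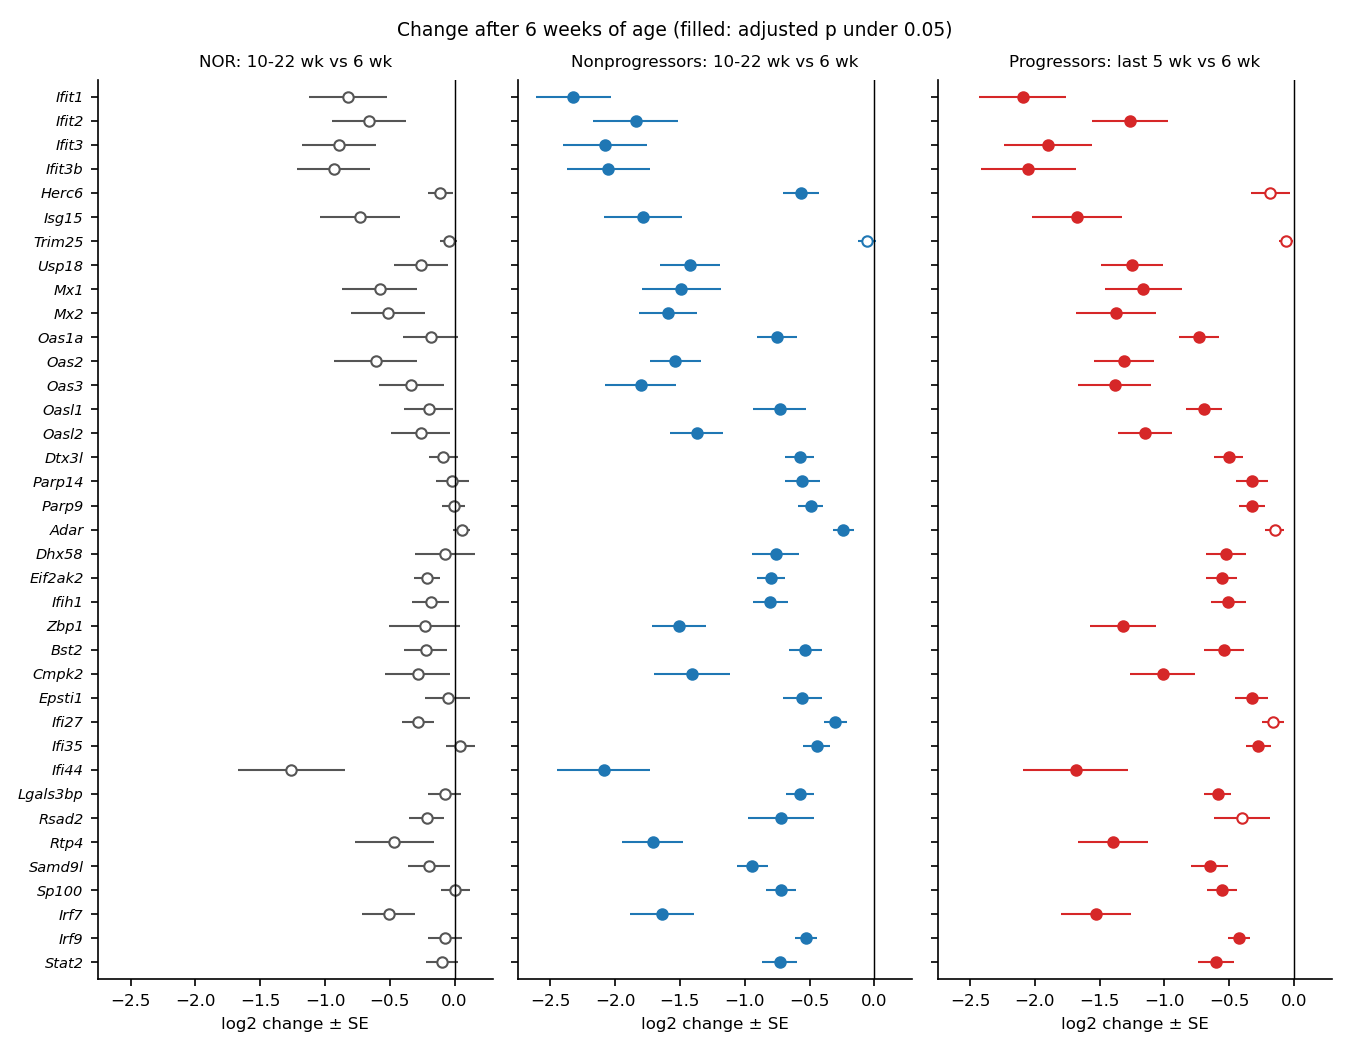
Log2 change with its standard error (x axis) of each of the 37 genes (y axis, ordered by role) in later biopsies compared with 6 weeks, in panels for NOR, nonprogressors and progressors; filled points passed an adjusted p of 0.05. No point is filled for NOR, 36 are for nonprogressors and 32 for progressors, with Ifit1 at -2.32 and -2.10 in the latter groups and Trim25 near 0 in every panel.

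The values in progressors were not alike in the batches, whose difference was not tested. Within batch 2, 32 members fell (median -1.02), where 16.4% of all genes fell. Within batch 1, 5 of 37 fell, close to the share of all genes that did (13.4%). These were Ifit1 (-0.999), Oas2 (-0.98), Irf7 (-0.91), Lgals3bp (-0.48) and Oasl1, a regulator of Irf7 translation (-0.40), and the median over the members was -0.27. Ifit1 measured 12.3, 12.1, 9.00, 15.3 and 8.56 CPM at 6 weeks in progressor mice 1 to 5 of batch 1, and 1.74 to 16.4 CPM (median 4.65, n = 20) later. In mice 6 to 10 of batch 2 it measured 17.1, 6.48, 33.7, 28.8 and 108 CPM at 6 weeks and 1.67 to 48.7 CPM (median 3.77, n = 20) later. Over both batches Ifit1 fell by 2.10 ± 0.34 (SE, adjusted p = 1.84e-06). The 6-week biopsy of mouse 10 was the highest of all 46 libraries of batch 2 in 16 of the 37 genes.

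Irf7 in progressors measured 58.9, 45.7, 76.0, 54.5 and 80.7 CPM at 6 weeks in batch 1 and 45.3, 51.3, 94.6, 69.0 and 138 CPM in batch 2. Later Irf7 ran from 12.9 to 85.2 CPM (median 31.0) and from 10.1 to 144 CPM (median 14.5), with n = 20 in each batch. Irf7 fell by 1.52 ± 0.27 (SE, adjusted p = 1.02e-05), Oas2 fell by 1.31 ± 0.23 (adjusted p = 9.57e-06), Usp18 fell by 1.25 ± 0.24 (adjusted p = 4.1e-05) and Lgals3bp fell by 0.59 ± 0.10 (adjusted p = 9.21e-06). Isg15 measured 7.31, 3.12, 3.90, 4.51 and 3.11 CPM at 6 weeks in batch 1, inside its later range of 1.49 to 9.48 CPM, and 6.04, 3.90, 16.1, 12.3 and 37.1 CPM in batch 2, where its later median was 1.87 CPM. Isg15 fell by 1.67 ± 0.35 (adjusted p = 0.000111). No member had every later sample below every 6-week sample in progressors, in batch 1 (0.896% of genes) or batch 2 (2.5% of genes), or in NOR (0.0251% of genes). Every later biopsy scored below the 6-week biopsy in 6 of 10 progressors. Each progressor had 4 later biopsies, whereas batch 2 nonprogressors had 1, so this count is not like that of the nonprogressors. The mean later score was lower in 9 of 10 progressors, the exception being mouse 2, whose later mean was 0.22 higher.

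**Figure D3:**
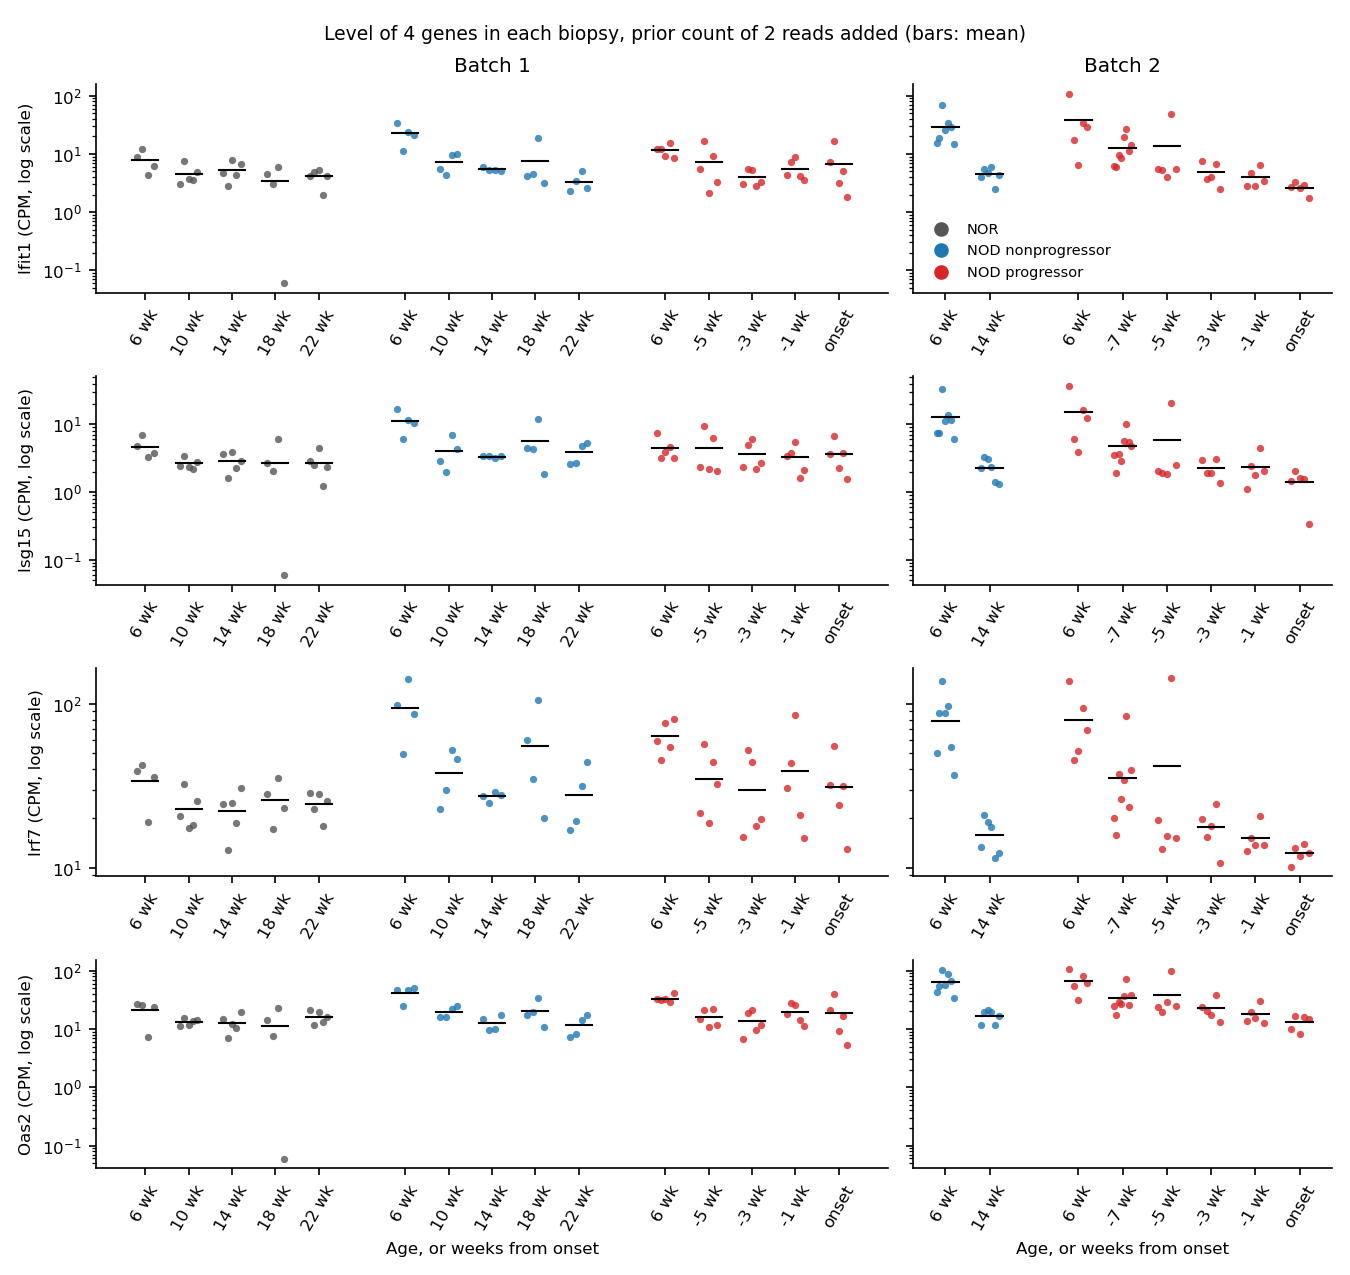
Level of Ifit1, Isg15, Irf7 and Oas2 in each biopsy (CPM with a prior count of 2 added, log y axis), by group and time (x axis), with a column for each batch; points are biopsies and bars are means. The points below all others at 18 weeks in NOR are counts of 0 in the ribosomal RNA-rich library, and for Ifit1 the 6-week nonprogressor biopsies of batch 2 (14.5 to 70.6 CPM without the prior count) all lie above the 14-week ones (2.39 to 5.91 CPM).

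One later progressor biopsy stood apart. In mouse 8 at 5 weeks before onset, all 37 genes were among the 5 highest values of the 46 libraries of batch 2, and 6 were the highest. Ifit1 measured 48.7 CPM there compared with 3.94 to 5.55 CPM in the 4 other batch 2 mice at that time, and Irf7 144 CPM compared with 13.0 to 19.6 CPM. Its score was 5.94, compared with 5.38 at 6 weeks and 4.24, 4.19 and 3.66 in the 3 later biopsies of that mouse. At onset mouse 7 of batch 2 had the lowest value of batch 2 in 21 members.

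**Figure D4:**
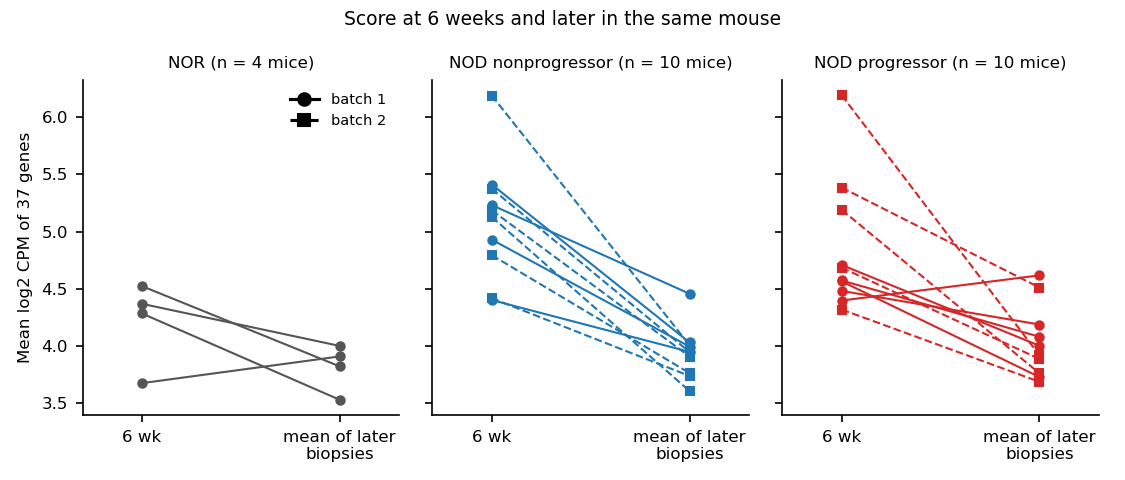
Score of the 37 genes (mean log2 CPM, y axis) at 6 weeks and as the mean of the later biopsies (x axis), a line for each mouse that has both, in panels for NOR, nonprogressors and progressors; circles with solid lines are batch 1 and squares with dashed lines batch 2. All 10 nonprogressors, 9 of 10 progressors and 3 of 4 NOR mice go down.

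By 7 weeks before onset, measured in 8 progressors that were all read in batch 2, the score was 4.50 ± 0.46 (SD), and 1 of 37 genes was lower than at 6 weeks (12.5% of all genes passed and 6.64% were lower). This was Oasl1 (-0.69 ± 0.20 SE, adjusted p = 0.0183), and the median change over the members was -0.42. Within batch 2, where 9.32% of all genes were lower, the number was 6 (Ifit1 -1.62, Isg15 -1.71, Usp18 -1.29, Oasl1 -0.89, Dhx58 -0.74 and Eif2ak2 -0.57), and with the mouse as a block, which pairs mice 1 to 4 across the batches, it was 0 and the median was -0.09. Without mouse 10 the count was 0, and without mouse 2 or mouse 6 it was 2. From 7 weeks before onset to the later biopsies, 0 of 37 passed (3.89% of genes did, 1.91% lower and 1.98% higher, and DESeq2 also called 0 members), all 37 changes were negative (median -0.27) and 12 had an unadjusted p under 0.05. Zbp1 (-0.80 ± 0.31 SE, adjusted p = 0.124), Ifit1 (-1.03 ± 0.41, adjusted p = 0.145) and Ifi27 (-0.24 ± 0.10, adjusted p = 0.145) had the smallest p. Without mouse 8, which has no biopsy at 7 weeks before onset, 11 members passed, and within batch 2, where 3.93% of all genes were lower, the count was 3 (Ifit1, Ifit3 and Ifit3b). All 3 were lost with the mouse as a block in mice 6 to 10 of batch 2, where the median change of the members was -0.58. That fit also left out the biopsies of mice 1 to 4 at 7 weeks before onset. The block and the smaller number of samples cannot be told apart there.

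At onset compared with 5 to 1 weeks before it, 0 of 37 genes passed (0.282% of genes did, with 0.0564% lower), 3 had an unadjusted p under 0.05 and all 37 changes were negative (median -0.29). Ifi27, a mitochondrial protein, was closest to the threshold (-0.29 ± 0.09 SE, adjusted p = 0.0998), followed by Oas1a (-0.39 ± 0.17, adjusted p = 0.244) and Epsti1 (-0.29 ± 0.14, adjusted p = 0.275). Ifi27 passed with DESeq2 and without mouse 2, which made the count 1, and within batch 2 Ifi27 (-0.47) and Ifit3b (-1.90) made it 2, where 6.9% of all genes were lower. With the mouse as a block within batch 2 only Ifi27 passed (-0.46). The median change at onset was -0.03 within batch 1 and -0.49 within batch 2. Ifit1 at onset measured 7.15, 16.4, 3.04, 4.98 and 1.74 CPM in mice 1 to 5 and 3.18, 2.53, 2.85, 1.67 and 2.68 CPM in mice 6 to 10.

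A direct comparison of progressors with nonprogressors at 6 weeks of age asked whether the genes differed before the disease was evident. At this age 0 of the 37 genes passed (0.0% of 19082 genes, DESeq2 0), none had an unadjusted p under 0.05, and the median log2 difference was -0.15. The members closest to the threshold were Ifi27 (-0.11 ± 0.08 SE, adjusted p = 0.9), Samd9l (-0.22 ± 0.16, adjusted p = 0.904) and Eif2ak2 (-0.23 ± 0.16, adjusted p = 0.904). The batches gave different values, whose difference was not tested. In batch 1 progressors were lower, with a median of -0.47 and 17 members at an unadjusted p under 0.05, although none passed after adjustment. In batch 2 the median was 0.03 with 0 such members. For Ifit1 in batch 1, the 5 progressors (8.56 to 15.3 CPM) overlapped nonprogressor mouse 2 (11.1 CPM) but not the other 3 nonprogressors (21.4 to 33.7 CPM). For Irf7 the ranges overlapped in both batches.

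After 6 weeks of age, progressors compared with nonprogressors gave 0 of 37 genes (0.0132% of 22696 genes, DESeq2 0), with 36 of 37 differences positive, a median of 0.18 and 7 members at an unadjusted p under 0.05. Dhx58, the sensor LGP2 (0.29 ± 0.10 SE, adjusted p = 0.47), Rsad2 (0.28 ± 0.12, adjusted p = 0.491) and Adar (0.11 ± 0.05, adjusted p = 0.509) had the smallest p. The median was 0.09 within batch 1 and 0.33 within batch 2. Progressor times were set by onset and nonprogressor times by age, so ages were matched only roughly.

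The strains were compared within batch 1, with the biopsies of each mouse summed, as 9 NOD mice and 5 NOR mice. Of the 37 genes, 6 were higher and 1 lower in NOD, where 8.98% of all 23387 genes passed the test, 3.87% higher and 5.11% lower. The median log2 difference of the members was 0.34, compared with -0.002 over all genes, 36 of 37 were positive, and 25 had an unadjusted p under 0.05. The genes that were higher were Oasl1 (0.36 ± 0.07 SE, adjusted p = 0.00282), Rsad2 (0.44 ± 0.10, adjusted p = 0.0119), Oas1a (0.34 ± 0.08, adjusted p = 0.0198), Bst2 (0.31 ± 0.08, adjusted p = 0.0231), Irf7 (0.78 ± 0.20, adjusted p = 0.0238) and Rtp4 (0.73 ± 0.20, adjusted p = 0.0369). Ifi27 was lower (-0.34 ± 0.07, adjusted p = 0.0079). Ifi44, the member of largest difference (1.12 ± 0.35, adjusted p = 0.0609), did not pass, nor did Ifit1 (0.70 ± 0.27, adjusted p = 0.122).

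Irf7 measured 26.2, 25.5, 20.5, 20.3 and 27.9 CPM in NOR mice 1 to 5 and 27.3 to 69.6 CPM (median 43.1) in the 9 NOD mice, so the lowest NOD mouse overlapped the highest NOR mouse. Rsad2 ranged from 22.8 to 32.2 CPM in NOD (27.8 ± 4.28, SD, n = 9) and from 18.5 to 22.3 CPM in NOR (20.5 ± 1.38, n = 5), without overlap. Oas1a ranged from 16.4 to 24.6 CPM in NOD and from 13.5 to 16.3 CPM in NOR, narrowly without overlap. All other members overlapped between the strains. The share of all genes without overlap was not counted, so this is not a result about the members. Oasl1 was 20.4 ± 1.76 CPM in NOD and 15.8 ± 1.34 CPM in NOR and the lowest NOD mouse met the highest NOR mouse. Bst2 was 39.1 ± 4.60 CPM in NOD and 31.5 ± 2.19 CPM in NOR, with overlap. Rtp4 was 10.7 ± 3.54 CPM in NOD and 6.42 ± 0.79 CPM in NOR, with overlap. Ifi27 went the other way, at 33.9 ± 2.97 CPM (30.4 to 39.4) in NOD and 42.8 ± 4.83 CPM (38.3 to 49.0) in NOR.

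**Figure D5:**
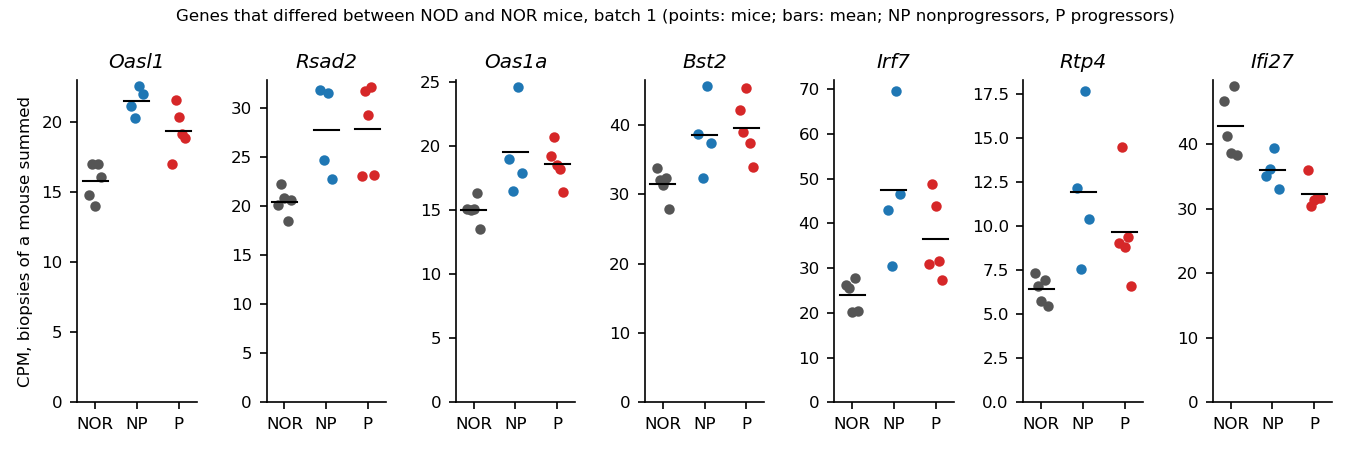
CPM (y axis, from 0) of the 7 members past the test between the strains, in NOR, nonprogressor (NP) and progressor (P) mice of batch 1 (x axis); points are mice, with their biopsies summed, and bars are group means. Oas1a lies at 13.5 to 16.3 CPM in NOR and 16.4 to 24.6 CPM in NOD, and Ifi27 is lower in NOD.

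The strain count depended on single mice and on the age of the biopsies. It was 3 without NOR mouse 3 (Oasl1, Rsad2 and Ifi27), which has no 6-week biopsy, 4 without NOR mouse 4, 11 without nonprogressor mouse 2 and 20 without progressor mouse 5. With the 6-week biopsies alone it was 1 (Oasl1, 0.46), with a median over the members of 0.53. With the later biopsies alone it was 4 (Oasl1, Rsad2, Bst2 and Ifi27), with a median of 0.19. Nonprogressors alone against NOR gave 11 members, and progressors alone gave 5 (Oas1a, Oasl1, Rsad2, Bst2 and Ifi27). The share of all genes that passed in each of these fits is not given here. A change in the count can therefore reflect more or fewer calls among all genes. Since NOR and NOD differ in part of their genomes, the tested genes within 1 Mb of each member were counted. Of the neighbours of the 7 called members, 0 to 9.52% passed the test, compared with 8.98% of all genes. The highest shares lay around members that did not pass themselves: Sp100 (42.6%), Cmpk2 (25%, of 4 neighbours), Eif2ak2 (21.1%) and Irf9 (15.6%). Members counted as neighbours of each other. The 1 neighbour of Cmpk2 that passed was the called member Rsad2, and 0 of the 4 neighbours of Rsad2 passed.

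Between the batches, at the same ages in nonprogressors, 6 members differed, where 49.9% of all 21050 genes did. Samd9l (0.57), Oas2 (0.50), Parp9 (0.34) and Irf9 (0.23) were higher in batch 2, and Irf7 (-0.52) and Bst2 (-0.52) were lower, on the log2 scale.

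The interferons themselves were close to the limit of detection. Of 20 genes for type I and type III interferons, 7 had no count in any library and the highest count of any was 69. Only Ifnk, interferon kappa, passed the filter on low counts, and it rose with age, by 0.77 ± 0.22 in nonprogressors (SE, adjusted p = 0.0129) and 1.05 ± 0.23 in progressors (adjusted p = 0.000219), whereas all 37 changes were negative there. Ifnb1, the early interferon beta, had 5 counts in all, over 5 libraries.

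Of all genes tested, 9.88% rose and 14.2% fell with age in nonprogressors. In progressors, 19.6% rose and 19.9% fell over the last 5 weeks compared with 6 weeks. Of 9 genes for interferon receptors and the Jak-Stat pathway, 2 rose and 0 fell with age in nonprogressors, and 6 rose and 1 fell in progressors. The gene that fell was the receptor kinase Jak1 (-0.17 ± 0.06 SE, adjusted p = 0.0267). The receptor subunits Ifnar1 (0.16) and Il10rb (0.28) rose in progressors. Among 15 sensors and adaptors upstream of interferon, 2 rose and 6 fell in nonprogressors, and 3 rose and 5 fell in progressors. Those that fell in nonprogressors included Ddx58, which encodes RIG-I (-0.87), and the endosomal RNA receptors Tlr7 (-0.56) and Tlr3 (-0.38). Of 10 negative regulators, 1 rose and 1 fell in nonprogressors, the latter being the DNase Trex1 (-0.59). Of 29 further interferon-stimulated genes, 20 fell and 0 rose with age in nonprogressors, and 21 fell and 0 rose in progressors. In NOR 0 passed, where only 0.0357% of all genes did, and the median log2 change was -0.09. Between the strains, 3 of these 29 were higher and 4 lower in NOD, with a median log2 difference of 0.05. For the 37 members the counts were 6 and 1 and the median was 0.34. Of all genes tested, 3.87% were higher and 5.11% lower. Ifitm3, which blocks virus entry, was among those that fell in progressors (-1.03). Of 7 tested genes on the interferon gamma side, 1 rose and 2 fell in nonprogressors, among them Cxcl9 (-1.50) and Gbp2 (-0.69), and 3 rose and 1 fell in progressors.

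Markers of some other cell types moved with these changes and those of others did not. Of 5 markers each of adipocytes, skeletal muscle and erythroid cells, 0 passed in nonprogressors with age or in progressors over the last 5 weeks. The summed skeletal muscle level ran from 0.334 to 25000 CPM over all 120 samples. All 6 fibroblast markers fell with age in nonprogressors and in progressors. In NOR 0 of 6 passed, where only 0.0357% of all genes did, and their median log2 change was -0.26. Their summed level in nonprogressors ranged from 33400 to 50800 CPM at 6 weeks and from 14200 to 57900 CPM later in batch 1, and from 39200 to 68500 CPM and 12700 to 29000 CPM in batch 2. In progressors it went from 44500 to 83200 CPM at 6 weeks to 9710 to 43200 CPM later in batch 1, and from 39100 to 68100 CPM to 5900 to 35500 CPM in batch 2. Endothelial markers fell in 2 of 5 in nonprogressors and 4 of 5 in progressors, where 14.2% and 19.9% of all genes fell. Those listed for plasmacytoid dendritic cells fell in 2 of 7 (Tcf4 and Runx2) in both groups. The other genes of that list, Siglech, Ccr9, Klk1, Cox6a2 and Pacsin1, passed in neither group. In nonprogressors and progressors in turn, 9.88% and 19.6% of all genes rose. B cell markers rose in 2 of 5 and 4 of 5 and T cell markers in 0 of 7 and 4 of 7. Neutrophil markers rose in 1 of 5 and 2 of 5 tested. Of 4 tested epidermis markers, 3 fell in nonprogressors (median of the 4 -3.37) and 1 rose in progressors. The summed epidermis level in batch 1 nonprogressors ran from 0.803 to 544 CPM at 6 weeks (median 2.94) and from 0.824 to 127 CPM later (median 1.76). Of the 8 macrophage markers 0 passed in nonprogressors and 1 rose in progressors (Cd14, 0.28). Between strains 4 of 8 were lower in NOD (C1qb -0.88, C1qa -0.50, C1qc -0.53 and Csf1r -0.26), where 5.11% of all genes were lower. None of these marker lists held a gene at 0 in all samples. Their part in the changes of the interferon-stimulated genes was not tested, and in bulk samples fewer cells of a type and less RNA per cell cannot be told apart.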

How the data were processed

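Total RNA of scaffold biopsies was depleted of ribosomal RNA and sequenced on different NovaSeq models for batch 1 and batch 2. The authors deposited unnormalized expected counts (estimates of the reads of each Ensembl gene, already rounded), with the batches in separate tables. The submitters' processing notes name cutadapt, FastQC, STAR, RSEM, MultiQC and GRCm38, with versions not given in the sources used here. The tables held 55492 and 55491 rows, of which 55487 genes were in both. Coordinates and exon lengths were taken from GENCODE M21 on GRCm38 and promoters from RefSeq on GRCm38.p6.

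Counts of both batches were joined by gene and tested in R 4.3.3 with the quasi-likelihood F test of edgeR 4.0.16, after filterByExpr and TMM scaling, at a Benjamini-Hochberg adjusted p under 0.05 over all genes tested. The 37 genes all passed the filter in each comparison. The standard error was the absolute log2 change divided by the square root of F. Batch was a term where a comparison spanned both batches. DESeq2 1.42.0 was the alternative, and the scaling, the filter, the batch term, a block for the mouse, single batches and single mice were varied. The score used log2 CPM with a prior count of 2. Libraries of batch 1 held 4722396 to 56185434 counts, and all p-values measure the spread between mice and their biopsies. Where a mouse gave several biopsies, they were summed (strain, progression after 6 weeks) or entered singly (age, time to onset). The mouse number in the labels pairs the latter, which come from the same animal. Deviations from the group mean were weakly alike within a mouse over the 37 genes (mean r of 0.0576 in NOR, 0.0614 in nonprogressors and 0.0426 in progressors). This r compares genes within a biopsy, so it cannot register a mouse whose genes are all high or all low. Progressor mouse 2 scored 5.00, 4.29, 4.54 and 4.65 at 5, 3 and 1 weeks before onset and at onset. The batch 1 progressor means at those times were 4.21, 4.02, 4.18 and 4.08. No pair of 239 replicate pairs agreed within sampling noise, the closest having a chi-square of 11.0 for each degree of freedom. Python 3.11.15, pandas 2.3.3 and matplotlib 3.10.9 were used for descriptions and figures, and the edgeR step was tested on simulated data.

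The genes, the lists and the tests were chosen with earlier results of these data known. Values were given for Ifit1, Isg15, Irf7, Oas2, Mx1, Rsad2, Usp18 and Bst2 and for members past the threshold (at most the 10 of smallest p in a comparison), or, where none passed, the 3 of smallest p. In other lists at most the 3 of smallest p were named, and 1 gene of the receptor and Jak-Stat list is not reported here. Members were also named by role, as extremes or as not passing, and Jak1 as the one of its list that fell, after their values were seen. The biopsies labelled by days were left out of all main tests because they are not linked to a mouse. They entered only the alternative fit of the strains with each biopsy as a sample.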

Additional observations from a re-analysis of the deposited data

Results flagged for a closer look

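Of 207 sets of 4 to 8 biopsies (23 groups by time and batch, each for the score and 8 genes), 22 had a highest or lowest biopsy far from the others by Dixon's test, and chance gives about 1 in 20. Values are log2 CPM. Progressor mouse 8 at 5 weeks before onset was the highest of its group in 9 of these: the score (5.94, nearest 4.08), Ifit1 (5.61, nearest 2.49), Isg15 (4.38), Irf7 (7.18), Oas2 (6.62), Mx1 (4.71), Rsad2 (5.88), Usp18 (5.07) and Bst2 (5.74). These 9 measures come from 1 library and are not independent. The same mouse had the highest score at 1 week before onset (4.19).

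Nonprogressor mouse 5 was the highest of 7 mice at 6 weeks in batch 2 for Mx1 (5.14) and Rsad2 (6.72), and nonprogressor mouse 2 was the lowest of 4 at 6 weeks in batch 1 for Oas2 (4.65). Isg15 of nonprogressor mouse 3 at 14 weeks (1.66) lay close to the nearest value (1.76). Progressor mouse 9 at onset was the lowest for Isg15 (-1.54) and Bst2 (2.72).

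In NOR, mouse 4 was the lowest for Oas2 at 6 weeks (2.85) and for Ifit1 at 22 weeks (0.98). Mouse 2 was the highest at 10 weeks for the score (4.21) and Mx1 (1.92), and mouse 1 the lowest at 10 weeks for Bst2 (5.01). Ifit1 in the 18-week library of mouse 5 (-4.08) stands for a count of 0 and is set by the prior count.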

How the results depend on the processing

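Depth limited the interferon genes, of which 1 of 20 could be tested, and low counts limited the 18-week library of NOR mouse 5, where 10 members had none. Across alternatives, single members were compared only where they had passed (at most 10 in a comparison) or, where none passed, had the smallest p. Of these values, 755 kept their side of the threshold, 11 passed it newly and 37 no longer passed. Changes of sign in the other members were not counted. For progressors against nonprogressors at 6 weeks of age, the median over the 37 members was negative with both batches and positive within batch 2. All 97 alternative scores were counted as unchanged, but the rule was wide. A difference in score counted as moved only if it shifted by at least its pooled SD. A change of sign counted only where the main difference was at least that SD. For progressors minus nonprogressors at 6 weeks in batch 2, that SD was 0.622. Without single mice this difference ran from -0.263 to 0.205, and it was still counted as unchanged. For scores from scaled expression values only the sign was compared, with the same limit. Causes were not tested.

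For NOD against NOR, where 7 members passed, the number was 22 with DESeq2 and 17 with each biopsy as a sample. That last fit also held the biopsies labelled by days. The number was 1 with 6-week biopsies only, 4 with biopsies after 6 weeks only (chosen after seeing the data) and 11 with nonprogressors alone. It ran from 3 to 20 when single mice were left out. The share of all genes that passed in these strain fits is not given here. For progressors from 6 weeks to the last 5 weeks (32), it was 5 within batch 1 and 24 to 33 without single mice. For progressors from 6 weeks to 7 weeks before onset (1), it was 2 with DESeq2, 2 without a batch term, 6 within batch 2 and 0 to 2 without single mice, and with the mouse as a replicate block 0, also within batch 2 (chosen after seeing the data). From 7 weeks before onset to later (0), it was 8 without a batch term, 3 within batch 2, 0 with the replicate block there and 0 to 11 without single mice. For onset against 5 to 1 weeks before (0), it was 1 with DESeq2, 2 within batch 2, 1 with the replicate block within batch 2 and 0 to 1 without single mice. For nonprogressors with age (36), it was 36 with the replicate block and 28 to 36 without single mice. The block over both batches changed no other count. The fits with the block within batch 2 also left out the biopsies of progressor mice 1 to 4. Leaving out libraries with over 15% of counts on 7SL RNA, chosen after seeing the data, left 34 in nonprogressors with age and 30 in progressors over the last 5 weeks.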

Other observations

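Xaf1, an interferon-stimulated gene with a role in cell death that is not among the 37, was lower in NOD than in NOR (log2 difference -1.12 ± 0.12 SE, adjusted p = 7.44e-06, edgeR's quasi-likelihood test), in contrast to the positive median of the 37 genes. With age it fell in nonprogressors (-1.11 ± 0.15, adjusted p = 1.45e-05) and progressors (-0.86 ± 0.18, adjusted p = 0.000121).

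Of the nonprogressor biopsies labelled by days after implantation, the 2 at 31 days had scores of 4.77 and 5.11, the 2 at 38 days 4.17 and 4.18, and the 2 at 108 days 4.06 and 4.10. Their ages were not given, and they entered no comparison but the alternative fit of the strains with each biopsy as a sample.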
